A study of Bos taurus with 15 samples.

Results

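CD1 molecules were measured with 4 of the 21475 bovine probes on the array, 1 probe for each of 4 genes, which amounts to 8 of 42990 bovine spots. A probe was taken when its gene name was CD1 followed by a letter, or when its description named a CD1 molecule. The first was CD1B, and the second was CD1B5, described on the array as similar to CD1b. The third was LOC509005, described as a CD1b precursor and carrying only a locus number in RefSeq. The fourth was LOC512286, which the array describes as similar to human CD1E. RefSeq gives the symbol CD1E to a different cattle gene, so the identity of LOC512286 as CD1E is uncertain and it is called by its locus number here. CD1A and CD1D had no probe by this rule and were not analysed here.

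CD1 proteins are relatives of MHC class I that pair with beta-2 microglobulin and show lipids, rather than peptides, to T cells. CD1b loads lipids in late endosomes and lysosomes with the help of lipid transfer proteins, and human CD1e stays inside the cell and helps to prepare lipids for CD1b. In the human thymus CD1 molecules are carried by immature cortical thymocytes, and dendritic cells and some B cells also carry members of the family. In RefSeq the 4 genes lie on the same chromosome among other CD1 genes, with CD1B and LOC509005 next to each other. Near-identical copies in such a cluster can bind to each other's probes, so a value belongs to a probe and only with that limit to a gene. The probe sequences were not analysed here.

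T cells mature in the thymus, and prednisolone is a synthetic glucocorticoid. The treated animals were 8 Holstein cows that had received oral prednisolone for 35 days, 30 mg per head each day, set against 7 Holstein cows whose treatment label is none. The protocol field of these 7 also names prednisolone, in conflict with that label, and every comparison here follows the treatment label. Thymus was collected at slaughter, and total RNA of 1 cow was labelled with Cyanine 3 and hybridised to 1 array, so a replicate is a cow. The age and sex of the cows were not given in the sources used here, and cow numbers within a group are names given in sample order.

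The arrays lay on 4 slides. Slide 1 held prednisolone cow 6 with controls 1, 2 and 5, slide 2 held prednisolone cows 3, 5 and 8 with control 3, and slide 3 held prednisolone cow 1 with controls 4, 6 and 7. Slide 4 held only prednisolone cows 2, 4 and 7 and stood apart from the others. The CD1 differences, the list medians and the correlations among CD1 probes and with list means are therefore given with and without it. The share of bovine spots well above background ran from 67.1% to 77.7% over the arrays, and precision is set by how many arrays there are. Thymus markers were present: DNTT, the polymerase that adds bases during receptor rearrangement, averaged 6.51 ± 0.22 in prednisolone cows and 6.58 ± 0.071 in controls (log2 signal relative to the array's 75th percentile, SD, n = 8 and 7). PTCRA, the pre-T cell receptor alpha chain, RAG1, the recombinase, and FOXN1, the master factor of thymic epithelium, were also well above background on all 15 arrays, while CD4 and RAG2 had no kept probe. In bulk tissue, fewer cells of a type and less RNA per cell cannot be told apart.

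All 4 CD1 probes were well above background with both spots on 15 of 15 arrays, with no saturated spot and no outlier spot. CD1B5 and LOC509005 were the dimmer ones, with intensities before centring of 102 to 282 and 159 to 618. CD1B ran from 3320 to 11200 and LOC512286 from 5500 to 14250. None passed the test for a difference between prednisolone and control cows, with a limma adjusted p under 0.05 over 16069 kept probes as the threshold. The background in this comparison was 0% of kept probes. At an unadjusted p under 0.05, 1 of the 4 probes differed, against 7.08% of all kept probes. It was higher with prednisolone, against 3.98% of all kept probes, and none was lower, against 3.1%. The 4 probes were chosen with earlier results of these cows known, so the count is a description.

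LOC509005, the CD1b-like gene beside CD1B, had the lowest p of the 4. In prednisolone cows its log2 signal had a lowest value of -1.60, a median of -1.36 and a highest value of -1.21, and in controls a lowest value of -2.41, a median of -1.87 and a highest value of -1.49. All 8 prednisolone cows lay above the control median and 6 lay above every control, so the groups still overlapped. The means were -1.39 ± 0.13 in prednisolone cows and -1.84 ± 0.29 in controls (SD, n = 8 and 7). The log2 difference, prednisolone minus control, was 0.45 ± 0.114 (SE; 95% interval 0.21 to 0.69), a ratio of 1.37 (1.16 to 1.62). Its limma p was 0.00120, rank 44 of the 16069 probes, and its adjusted p was 0.418, so the difference did not pass. A two-sided exact permutation test over the 6435 splits of the cows gave p = 0.000622 for LOC509005, not adjusted for the other probes. The same exact permutation test gave p = 0.208 for CD1B, 0.362 for CD1B5 and 0.375 for LOC512286. The exact permutation tests were added after the values were seen.

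The difference of LOC509005 pointed the same way on each slide that held both groups. It was 0.77 within slide 1, 0.34 within slide 2 and 0.32 within slide 3, each with a single cow on 1 side and no test. All 5 prednisolone cows on these slides lay above every control of their own slide. That count was 4 of 5 for CD1B and for LOC512286, and 3 of 5 for CD1B5. CD1B was also higher with prednisolone on each of these slides, by 0.30, 0.017 and 0.38. With slide as a block the log2 difference of LOC509005 was 0.48 ± 0.142 (limma adjusted p = 0.309), and without slide 4 it was 0.41 (limma adjusted p = 0.425). An exact permutation test that keeps slides gave p = 0.0156 for LOC509005, the smallest that its 64 arrangements allow. The same exact permutation test gave p = 0.109 for CD1B, 0.609 for CD1B5 and 0.219 for LOC512286. In it the cows of slide 4 always stay in the prednisolone group and enter the mean difference. These p-values are therefore not two-sided tests of the differences within slides alone. Leaving out control cow 1, the lowest of all the cows for LOC509005, left a difference of 0.36 for that probe. With normexp background correction, which moved the median difference of all kept probes to -0.21, the difference of LOC509005 was 0.14 as measured and 0.35 relative to that median.

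CD1B, which presents long-chain lipids such as those of mycobacteria to T cells, did not pass the test. In prednisolone cows its log2 signal ran from 2.14, with a median of 2.56, up to 2.67, and in controls from 1.97, with a median of 2.27, up to 2.61. 7 of 8 prednisolone cows lay above the control median, but only 2 lay above every control. The means were 2.48 ± 0.19 in prednisolone cows and 2.33 ± 0.24 in controls (SD, n = 8 and 7), with a log2 difference of 0.15 ± 0.113 (SE; limma adjusted p = 0.821). The 95% interval of the difference, -0.09 to 0.39, takes in a ratio from 0.938 to 1.31. The difference was 0.23 in the fit with a slide block, 0.28 without slide 4 and 0.087 without control cow 1.

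LOC512286, the gene that the array sets beside human CD1E, also showed broad overlap. In prednisolone cows its log2 signal had a lowest value of 2.75, a median of 3.05 and a highest value of 3.46, and in controls a lowest value of 2.67, a median of 3.00 and a highest value of 3.28. 2 prednisolone cows lay above every control and 4 lay above the control median. The means were 3.11 ± 0.23 in prednisolone cows and 3.00 ± 0.24 in controls (SD, n = 8 and 7), with a log2 difference of 0.11 ± 0.121 (SE; 95% interval -0.15 to 0.37; limma adjusted p = 0.887). The difference was 0.18 in the fit with a slide block, 0.031 without slide 4 and 0.057 without control cow 3.

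CD1B5, a further CD1b-type gene, was the 1 probe of the 4 with a lower mean under prednisolone. In prednisolone cows its log2 signal had a lowest value of -3.69, a median of -3.38 and a highest value of -2.29, and in controls a lowest value of -3.27, a median of -2.78 and a highest value of -2.69. The prednisolone cows lay on both sides of the controls, 5 below all of them and 3 above all of them. The means were -3.14 ± 0.52 in prednisolone cows and -2.94 ± 0.27 in controls (SD, n = 8 and 7), with a log2 difference of -0.20 ± 0.208 (SE; 95% interval -0.65 to 0.24; limma adjusted p = 0.874). The direction turned to 0.025 with slide as a block and to 0.061 when slide 4 was left out. Without prednisolone cow 6 the difference was -0.33.

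**Figure D1:**
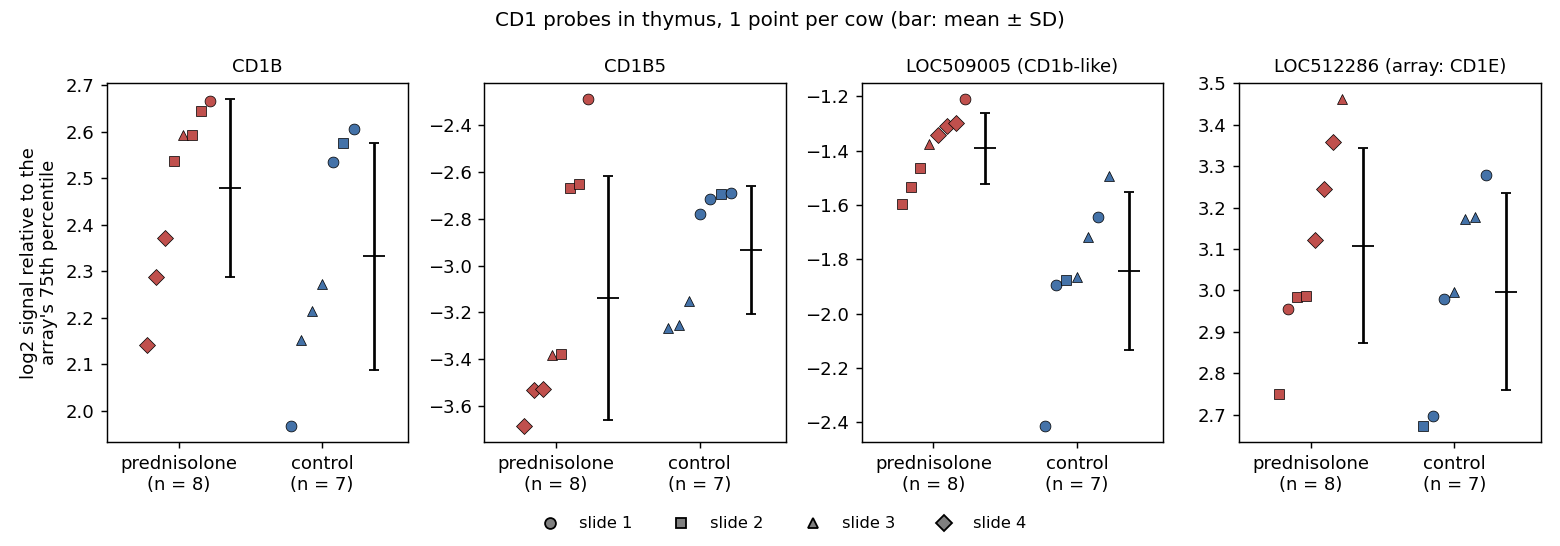
Log2 signal of each CD1 probe relative to the array's 75th percentile (vertical axis) in 8 prednisolone and 7 control cows, with 1 point per cow, the slide given by the marker shape and a bar for mean ± SD. LOC509005 shows 6 of 8 prednisolone cows above every control, and CD1B5 shows the 3 prednisolone cows of slide 4 at the bottom, between -3.69 and -3.53.

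CD1B5 varied more between slides than between treatments. Slides accounted for 77.3% of its spread over the 15 cows and treatments for 6.21%, against medians of 42.8% and 4.36% over all kept probes. Each share was computed on its own, with 4 slides against 2 treatments and with slide 4 holding no control. Slide and treatment shares therefore overlap and are not on an equal footing. Sorted by value, 7 cows lay between -2.78 and -2.29 and 8 lay between -3.69 and -3.15. The upper range held all 4 cows of slide 1 and 3 of the 4 cows of slide 2, and the lower range held all cows of slides 3 and 4. The gap of 0.37 between the ranges was 26.6% of the whole range of CD1B5, and the largest gaps of the other 3 probes were 24.8% (CD1B), 25.9% (LOC512286) and 43.0% (LOC509005) of theirs. The SD between cows within groups was 0.425 for CD1B5, and the SD of the mean of its spots was 0.118.

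Within the controls alone, CD1B5 was lower on slide 3 than on slide 1. The 3 controls of slide 3 averaged -3.22 and the 3 controls of slide 1 averaged -2.73, a log2 difference of -0.50 ± 0.095 (SE; limma adjusted p = 0.0375). In that contrast 6.15% of probes passed, 5.91% lower and 0.243% higher. The CD1B5 call was lost under each other scaling and background correction tried, with the authors' values, with no filter on dim probes and with a trended robust variance. The other 3 CD1 probes did not pass between these slides.

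Among the prednisolone cows, CD1B was lower on slide 4. The 3 cows of slide 4 averaged 2.27 and the other 5 prednisolone cows 2.61, a log2 difference of -0.34 ± 0.095 (SE; limma adjusted p = 0.0436). In that contrast 15.8% of probes passed, with 12.4% of all tested lower and 3.41% higher. After median centring the CD1B difference was -0.11 and did not pass (limma adjusted p = 0.534). CD1B5 had a difference of -0.71 ± 0.257 (limma adjusted p = 0.0972), LOC509005 of 0.12 ± 0.111 (limma adjusted p = 0.497) and LOC512286 of 0.21 ± 0.159 (limma adjusted p = 0.388). Slide 4 held no control, so slide and treatment cannot be told apart there.

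For LOC509005 the shares ran the other way, with 54.8% of the spread between treatments and 27.9% between slides. For CD1B the shares were 11.7% between treatments and 33.7% between slides, and for LOC512286 they were 5.98% and 49.9%. The spots of a probe lay close together: the SD of the mean of the spots was 0.0256 for LOC509005, against 0.220 between cows within groups. For CD1B these SDs were 0.0452 and 0.217, and for LOC512286 0.0447 and 0.236.

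**Figure D2:**
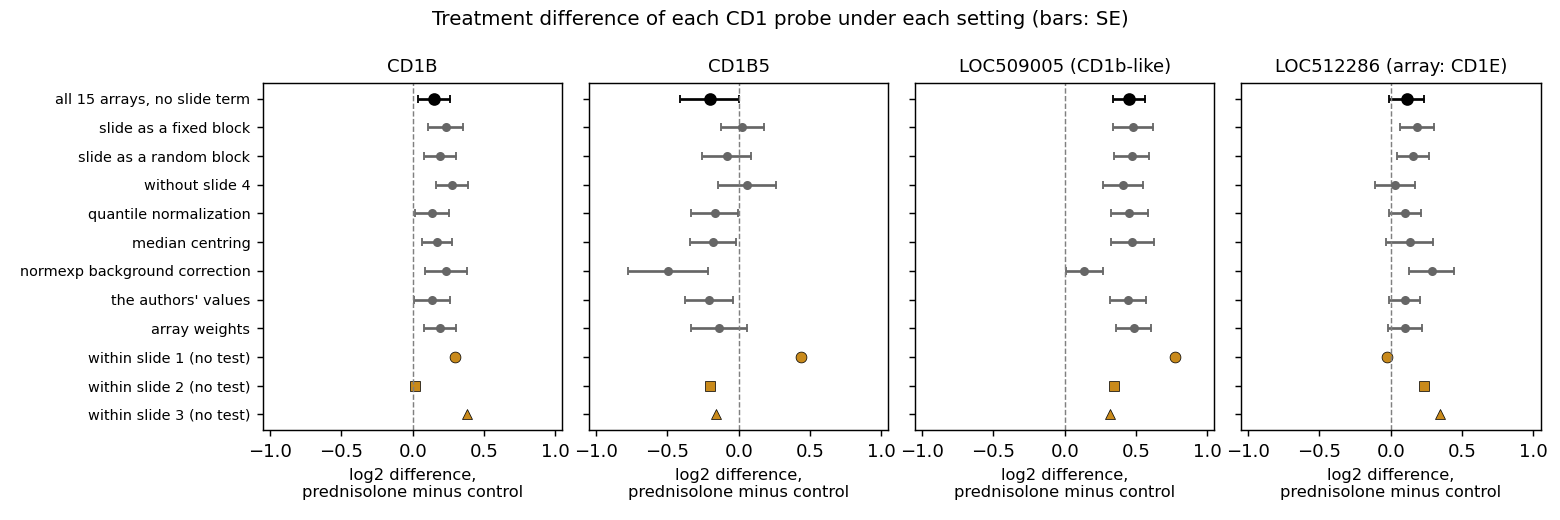
Log2 difference, prednisolone minus control (horizontal axis), of each CD1 probe under each setting listed on the vertical axis, with bars for the SE and single points without a test for the values within slides 1 to 3. LOC509005 stays right of 0 in every setting drawn, between 0.14 with normexp background correction and 0.77 within slide 1. CD1B also stays right of 0 in every setting drawn, while CD1B5 and LOC512286 (-0.03 within slide 1) lie on both sides of 0.

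The CD1 probes were set against each other across the 15 cows, in a family of 34 relations that also held their relations with the mean of 7 cell type lists. None of the 34 passed after adjustment, and 7 had an unadjusted Pearson p under 0.05 by permutation. CD1B5 and LOC512286 had Pearson r = -0.62 and Spearman rho = -0.68 (permutation p = 0.0154 and 0.0072; adjusted p = 0.234 and 0.178), with r = -0.69 without the 2 cows farthest from the median, -0.54 without slide 4 and -0.29 within slides. LOC509005 and LOC512286 had r = 0.54 and rho = 0.43 (permutation p = 0.0377 and 0.115, adjusted p = 0.234 and 0.301). Their r was 0.35 without the 2 farthest cows, 0.43 without slide 4 and 0.53 within slides. A slide holds too few cows for a value of its own, so the values within slides pool all 4 after centring. The 2 farthest cows were taken on the first-named probe of a pair, or on the list mean in a relation with a list.

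CD1B and LOC509005, the neighbours in RefSeq, had r = 0.40 and rho = 0.25 over all cows (permutation p = 0.140 and 0.366; adjusted p = 0.367 and 0.542). Their r was 0.14 without the 2 farthest cows, 0.68 without slide 4 and 0.80 within slides (permutation p within slides = 0.00469, adjusted p = 0.159). Centring on slides leaves the difference between treatments in the values. Inside the groups the r of CD1B and LOC509005 was -0.33 among prednisolone cows and 0.47 among controls. CD1B and CD1B5 had r = 0.47 and rho = 0.56 (permutation p = 0.0758 and 0.0336, adjusted p = 0.286 and 0.229). Their r was 0.66 without the 2 farthest cows, but 0.34 without slide 4 and 0.20 within slides. CD1B and LOC512286 had r = -0.0008 and rho = -0.09 over all cows (permutation p = 0.998 and 0.752; adjusted p = 0.9999 and 0.893), r = -0.32 without the 2 farthest cows and 0.70 within slides. Their r was -0.39 among prednisolone cows and 0.18 among controls. CD1B5 and LOC509005 had r = -0.37 and rho = -0.42 (permutation p = 0.177 and 0.123, adjusted p = 0.429 and 0.301). Their r was -0.63 without the 2 farthest cows, -0.10 without slide 4 and 0.13 within slides. Apart from CD1B with LOC509005 and with LOC512286, each pair of CD1 probes kept the sign of its r over all cows inside both groups.

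**Figure D3:**
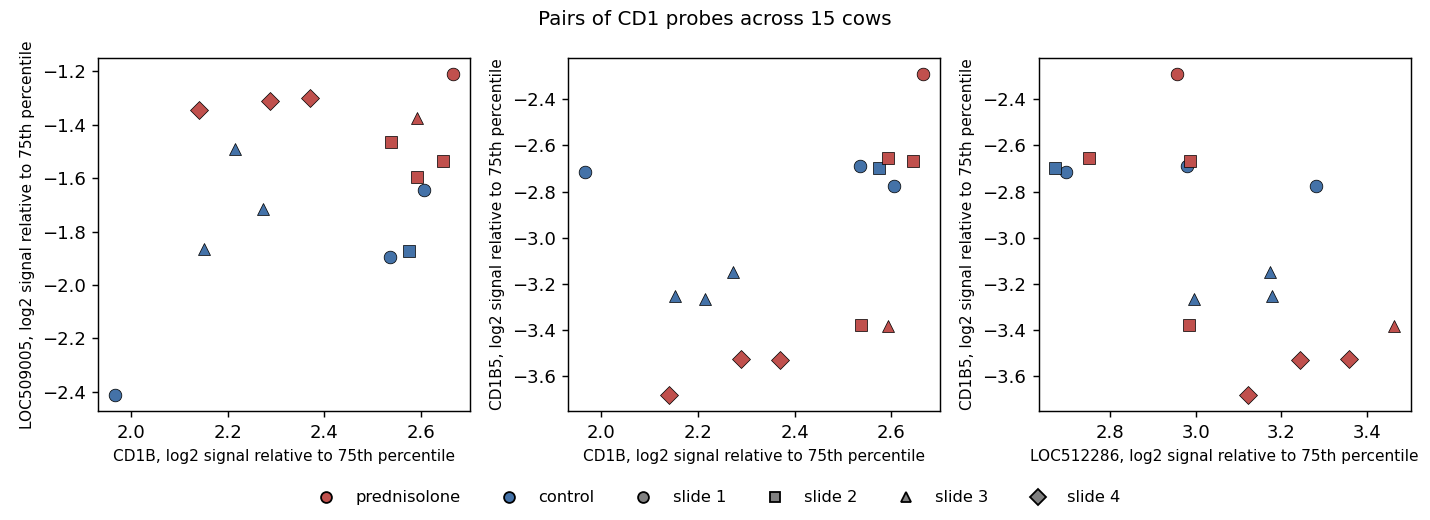
Log2 signal relative to the array's 75th percentile of 1 CD1 probe against another (both axes) across 15 cows, coloured by group and with the slide given by the marker shape. LOC509005 against CD1B gives r = 0.40 over all cows and 0.80 within slides, CD1B5 against CD1B gives 0.47 and 0.20, and CD1B5 against LOC512286 gives -0.62 and -0.29. The r of LOC509005 against CD1B was -0.33 among prednisolone cows and 0.47 among controls.

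The genes most like each CD1 probe were read off as the highest Pearson r over the 15 arrays among 10918 named genes, as a description, since these arrays share slides. For LOC509005 they included PEBP1 (r = 0.916, and 0.928 within slides), BIN1, a membrane-bending protein (0.907 and 0.907), SRPRA, a subunit of the receptor for signal recognition particles (0.866 and 0.851), and MPZL2, an adhesion molecule of thymic epithelium (0.860 and 0.904). Control 1 was the lowest of all the cows for LOC509005 and for each of these named genes, and r without that cow was not computed. For CD1B5 they were DHX36, an RNA helicase (r = 0.962, and 0.886 within slides), JMY, an actin nucleator (0.948 and 0.887), PLEKHB1 (0.946 and 0.768), ANKRD44 (0.937 and 0.714) and GTF2E1, a general transcription factor (0.931 and 0.688). For CD1B they were GPATCH4 (0.827 and 0.931), FRAT1 (0.811 and 0.702), CRYAA, a lens crystallin (0.809 and 0.734), ZNF165 (0.808 and 0.742) and TNFSF8, the ligand of CD30 (0.802 and 0.689). The probes of GPATCH4, FRAT1, CRYAA and ZNF165 were dim, with highest log2 signals of -3.85, -4.65, -4.92 and -4.70. CD1B itself ran from 1.97 to 2.67. MPZL2 was dim as well, with a highest log2 signal of -4.95. So were JMY, PLEKHB1 and GTF2E1, with highest log2 signals of -3.04, -3.60 and -3.60. For LOC512286 they were HSD17B8 (0.821 and 0.705), DKC1, the pseudouridine synthase dyskerin (0.820 and 0.660), MPG, a DNA glycosylase (0.819 and 0.734), NOTCH3 (0.814 and 0.734) and TCEA1, an elongation factor (0.813 and 0.659).

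The partners of CD1 showed no call either. Of 33 genes of CD1 loading and traffic, 28 were measured, 16 with a higher and 12 with a lower mean under prednisolone, none past the adjusted threshold. Their median log2 difference was 0.019, beside -0.0004 over all kept probes, and without slide 4 it was 0.0044, beside 0.021. B2M, the light chain that CD1 proteins need at the surface, averaged 6.93 ± 0.31 in prednisolone cows and 6.83 ± 0.14 in controls (log2 difference 0.10 ± 0.125 SE, limma adjusted p = 0.913), and its difference turned to -0.073 in the fit with a slide block and to -0.11 without slide 4. PSAP, the precursor of the saposins that hand lipids to CD1, had a difference of 0.045 ± 0.121 (limma adjusted p = 0.962), or 0.24 with a slide block and 0.22 without slide 4. The smallest p-values of the list belonged to HEXA, a lysosomal hexosaminidase subunit (0.18 ± 0.112, limma adjusted p = 0.759; 0.0023 with a slide block and 0.068 without slide 4), and UGCG, which makes glucosylceramide (0.12 ± 0.081, limma adjusted p = 0.785). B2M and PSAP were chosen for their roles, and MTTP, a further lipid transfer protein, had no kept probe.

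Of 22 genes of the development of CD1-restricted T cells, 18 were measured, 11 higher and 7 lower, with a median of 0.064, or 0.082 without slide 4, and none past the threshold. ZBTB16, the factor that directs natural killer T cells in mice, had a log2 difference of 0.083 ± 0.310 (limma adjusted p = 0.974), or 0.18 with a slide block and 0.44 without slide 4. The smallest p-values belonged to CXCR6, a chemokine receptor of such cells (0.46 ± 0.256, limma adjusted p = 0.741), and EGR2, a transcription factor (0.19 ± 0.116, limma adjusted p = 0.754). With a slide block these differences were 0.86 and 0.047, and without slide 4 they were 0.78 and 0.086.

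Cell types that can carry CD1 were followed by marker lists, of which no gene passed. Of 25 markers of cortical thymocytes 23 were measured, 13 higher and 10 lower, with a median log2 difference of 0.0027, or 0.017 without slide 4. The list's mean, taken over 21 of the measured genes, was 1.95 ± 0.077 in prednisolone cows and 1.94 ± 0.083 in controls (SD, n = 8 and 7). The smallest p-values were those of CD8A, a T cell coreceptor (0.23 ± 0.071, limma adjusted p = 0.568), and CHRNA3, a nicotinic receptor subunit (0.28 ± 0.092, limma adjusted p = 0.615). CD1B5 and that mean had r = 0.52 and rho = 0.43 (permutation p = 0.0479 and 0.113; adjusted p = 0.234 and 0.301), with r = 0.48 without the 2 farthest cows, 0.86 without slide 4 and 0.57 within slides. The value without slide 4 passed in its own family of 34 (12 cows, permutation adjusted p = 0.0204), and over all 15 cows the sign turned to -0.47 with median centring. The r of the same mean was 0.32 with CD1B, -0.03 with LOC509005 and -0.11 with LOC512286 (permutation adjusted p = 0.494, 0.9999 and 0.891). Without slide 4 these r values were 0.47, -0.09 and -0.19.

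Of 20 markers of dendritic and Langerhans cells 12 were measured, 7 higher and 5 lower, with a median of 0.031, or 0.075 without slide 4. CD80, a costimulatory ligand, had a log2 difference of -1.27 ± 0.559 (limma adjusted p = 0.693) and was well above background in 5 of 8 prednisolone cows and 7 of 7 controls. The size for CD80 rests on 3 prednisolone cows in which the probe was not well above background, and it was -0.30 with a slide block and -0.20 without slide 4. CIITA, the switch of MHC class II, had 0.21 ± 0.157 (limma adjusted p = 0.815), or 0.33 with a slide block. Of 15 B cell markers 11 were measured, 8 higher and 3 lower, with a median of 0.13, or 0.28 with a slide block and 0.22 without slide 4. BLNK, a B cell receptor adaptor, had a log2 difference of 0.24 ± 0.103 (limma adjusted p = 0.690).

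All 15 measured of 16 macrophage markers had a lower mean under prednisolone, with a median of -0.25 and none past the threshold. Over all kept probes 8053 of 16069 were lower. In the fit with a slide block the median of the macrophage markers was -0.14, with 14 lower and 1 higher. Without slide 4 it was -0.098, with 10 lower and 5 higher, beside 7171 lower and 8898 higher over all kept probes. HMOX1, haem oxygenase, had a log2 difference of -0.43 ± 0.164 (limma adjusted p = 0.655) and SPIC, a factor of iron-recycling macrophages, -0.59 ± 0.287 (limma adjusted p = 0.701). Without slide 4 these differences were -0.27 and -0.17, and SPIC had -0.13 with a slide block. The list's mean ran from -1.30 to -0.32 in prednisolone cows and from -0.95 to -0.17 in controls, and no measured marker was at 0. It averaged -0.996 in the 3 prednisolone cows of slide 4 and -0.49 in the other 5, against -0.41 in controls. LOC509005 and that mean had r = -0.55 and rho = -0.62 (permutation p = 0.0320 and 0.0157; adjusted p = 0.234 and 0.178), r = -0.61 without the 2 farthest cows, -0.39 without slide 4 and -0.49 within slides, and its sign turned to 0.19 with normexp. LOC512286 and the same mean had r = -0.57 and rho = -0.58 (permutation p = 0.0257 for both; adjusted p = 0.234 and 0.218), r = -0.40 without the 2 farthest cows, -0.40 without slide 4 and -0.62 within slides. The part of these cells in the LOC509005 difference was not tested.

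The remaining lists held other cells of the sample. Of 19 markers of mature T cells 13 were measured, 8 higher and 5 lower, with a median of 0.027, or 0.058 with a slide block and 0.11 without slide 4, led by GIMAP4, a lymphocyte GTPase (0.29 ± 0.113, limma adjusted p = 0.655), and CCR8, a chemokine receptor (-0.54 ± 0.274, limma adjusted p = 0.716), which turned to 0.058 with a slide block and was -0.029 without slide 4. CD1B5 and the mean of this list had the smallest p of the 34 relations, with r = 0.70 and rho = 0.63 (permutation p = 0.0055 and 0.0143; adjusted p = 0.187 and 0.178), r = 0.54 without the 2 farthest cows, 0.39 without slide 4 and -0.035 within slides. LOC512286 and this mean had r = -0.52 and rho = -0.46 (permutation p = 0.0481 and 0.0855; adjusted p = 0.234 and 0.301), r = -0.51 without the 2 farthest cows, -0.38 without slide 4 and -0.0016 within slides. Of 12 adipocyte markers 10 were measured, 8 higher and 2 lower, with a median of 0.25, or 0.59 with a slide block and 0.44 without slide 4, led by PNPLA2, the adipose triglyceride lipase (0.32 ± 0.117, limma adjusted p = 0.655), and GPD1 (0.24 ± 0.094, limma adjusted p = 0.655). Of 18 markers of thymic epithelium 17 were measured, 7 higher and 10 lower, with a median of -0.049, which turned to 0.014 with a slide block and was -0.0035 without slide 4, led by CLDN7, a tight junction protein (-0.35 ± 0.154, limma adjusted p = 0.698; -0.23 without slide 4), and PRSS16, a thymic serine protease (-0.14 ± 0.076, limma adjusted p = 0.724; -0.069 with a slide block).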

How the data were processed

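The authors deposited scanner files with the intensity of each spot, which per the file headers came from Feature Extraction 9.5.1.1. The processed signal is background-subtracted and detrended across the array, per the file headers, and was not scaled between arrays. A second deposited table holds linear intensity values of the same arrays, with centring unknown. R 2.11.1 is named in the submitters' processing notes. The genome build is not given in the sources used here.

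Each array's log2 processed signal was set relative to its 75th percentile over bovine spots, outlier spots were left out, and spots of a probe were averaged. The 16069 probes well above background on at least 7 arrays were tested with limma 3.58.1 in R 4.3.3 (version 1.17.8 of data.table, statmod 1.5.0), with Benjamini-Hochberg adjustment over all of them and 0.05 as the threshold. Permutations and figures used Python 3.11.15, numpy 2.4.6, pandas 2.3.3, scipy 1.17.1 and matplotlib 3.10.9. Correlations used 100000 permutations, two-sided, and Benjamini-Hochberg adjustment over 34 relations. The fit was tested on simulated data.

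The CD1 genes, the 9 gene lists and the tests were chosen with earlier results of these data known. Each list gene stands for its brightest kept probe. List means used only genes with a value on every array in the scanner files and in the second deposited table. These were 21 of 23 measured genes for cortical thymocytes, 9 of 10 for adipocytes and 16 of 17 for thymic epithelium. The other lists kept all their measured genes. Named genes were every CD1 probe, the 5 genes most like each, and from each list the genes that passed or else the 2 with the smallest p; B2M, PSAP, ZBTB16 and the thymus markers were added for their roles. Some genes that this rule names are not reported here. The exact permutation tests of single probes and the list values without slide 4 were added after the values were seen. Symbols came from the files' gene number, accession or description matched to RefSeq, and 16264 of 21475 probes had one. Slides were taken from the file headers, and all arrays were scanned on 1 day. The alternatives were quantile normalization, median centring, the authors' values, normexp (offset 50), slide as a random or fixed block, no filter or a stricter one, keeping outlier spots, slide 4 left out, values within slides, a trended robust variance, array weights and each cow left out.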

Additional observations from a re-analysis of the deposited data

Results flagged for a closer look

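No CD1 probe had a cow past the limit used here for a gap within its group (Dixon's test), though control 1 came close for LOC509005 at -2.41 (log2 signal relative to the array's 75th percentile), with a ratio of gap to range of 0.562 against a limit of 0.568. Among the other genes tested, which are those named from the lists, the thymus markers and the genes most like a CD1 probe, 6 had 1 cow past the limit. Chance alone sets apart about 1 in 20 groups. The 188 ends looked at were the lowest and the highest of each group, so there were fewer groups than ends. CXCR6 was lowest in prednisolone cow 7, at -2.18. EGR2 was highest in control 5, at -0.11, and SPIC was highest in control 2, at -3.01. CHRNA3 was lowest in control 2, at 0.31. SRPRA and MPZL2, both among the genes most like LOC509005, were lowest in control 1, at -0.89 and -6.62.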

How the results depend on the processing

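No CD1 probe passed between prednisolone and control cows under any of the 12 tested settings or without any 1 cow (limma). Leaving out 1 cow gave log2 differences of 0.087 to 0.20 for CD1B, -0.33 to -0.13 for CD1B5, 0.36 to 0.51 for LOC509005 (adjusted p 0.273 to 0.774) and 0.057 to 0.16 for LOC512286. CD1B5 turned to 0.025 under the slide block and 0.061 when slide 4 was left out; the cause was not tested. Within slide 1 CD1B5 was 0.44 and LOC509005 0.77, and within slide 3 CD1B was 0.38. Normexp moved the median of all probes by -0.21; relative to it the differences were 0.44, -0.29, 0.35 and 0.50 for CD1B, CD1B5, LOC509005 and LOC512286, and that of LOC509005 as measured was 0.14 (limma adjusted p = 0.455). Over all probes 0 passed (1138 at an unadjusted p under 0.05), 1 with quantile normalization, and 0 to 3 with 1 cow left out, the 3 without prednisolone cow 1. For slide 4 against the other prednisolone cows, CD1B was -0.11 with median centring, and 2541 probes passed, 6230 with no filter and 1671 of those above background on all arrays. For slide 3 against slide 1 controls, CD1B5 did not pass with quantile normalization (-0.37), median centring (-0.36), normexp (-0.94), the authors' values (-0.27), no filter (-0.50) or trended robust variance (-0.50); CD1B turned to 0.019 and LOC509005 to -0.19 with normexp. There 988 probes passed, 272 with quantile normalization, 82 with median centring, 0 with normexp, 138 with the authors' values and 530 with no filter. Correlations turned sign with CD1B and LOC512286 (quantile 0.018, median centring 0.31, normexp 0.40, authors' values 0.011, within slides 0.70, without slide 4 0.14). With the cortical thymocyte mean they turned for CD1B5 (median centring -0.47, normexp -0.42), LOC509005 (median centring 0.59, within slides 0.10, without the 2 farthest cows 0.10) and LOC512286 (median centring 0.73, normexp 0.55, within slides 0.19). With normexp they also turned for CD1B with CD1B5 (-0.31), CD1B with LOC509005 (-0.45), CD1B5 with LOC509005 (0.48; within slides 0.13) and LOC509005 with LOC512286 (-0.36). LOC509005 with the macrophage mean turned to 0.19 with normexp, and CD1B5 with the mature T cell mean to -0.035 within slides. Of the 34 relations, 2 passed under median centring (LOC512286 with LOC509005, 0.71, and with the cortical thymocyte mean; adjusted p = 0.0479 for both), 1 without slide 4 (CD1B5 with that mean) and 11 with normexp. Those 11 were CD1B5 with LOC512286 (-0.86, adjusted p = 0.0016), and each of these probes with the means of mature T cells, dendritic cells, macrophages, B cells and thymic epithelium (CD1B5 0.72 to 0.90, LOC512286 -0.87 to -0.73). None passed under the other 4 settings tried for them. No paired analysis was possible because cow numbers were given in sample order and pair no animals.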
